A study of Homo sapiens with 19 samples.

Results

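The RNAs examined here are the transcripts of G3BP1 and G3BP2 themselves, in SH-SY5Y cells, a human neuroblastoma line. The members were found by Ensembl gene ID (ENSG00000145907 and ENSG00000138757). They are 2 of 19942 genes in the table of transcript abundance and in the eCLIP table, and 168 of 256980 transcripts in the table of rRNA-depleted RNA, with 78 transcripts of G3BP1 and 90 of G3BP2. The study asked which RNAs the G3BP proteins bind, which RNAs enter stress granules (SGs), and how RNA levels change when either protein is depleted.

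The poly-A libraries came from cells given a control siRNA (siCtrl), an siRNA against G3BP1 (siG3BP1) or an siRNA against G3BP2 (siG3BP2). Another pair of libraries held RNA of cleared lysate (Total) and of SG cores (SG), both from cells treated with sodium arsenite (AS), an inducer of oxidative stress. The methods do not say how RNA was selected for this pair. The cores were purified with an antibody against the G3BP1 protein. The rRNA-depleted libraries came from untreated cells and from cells given 500 µM AS for 1 h. Each of these 7 conditions had 1 library, so no difference between them has a replicate check and no p-value is given for it. In eCLIP, UV light crosslinks a protein to the RNA it touches, and the fragments that precipitate with the protein are sequenced. The 8 eCLIP libraries were made with antibodies to G3BP1 or G3BP2 from untreated (Ctrl) cells and from cells given AS, in duplicate (2 per group). The 4 size-matched input libraries were not analysed here. Nothing in the labels says that the duplicates came from separate cultures, so the eCLIP p-values measure the spread between libraries, which may be technical.

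G3BP1 and G3BP2 are paralogous cytoplasmic RNA-binding proteins that act as the scaffold of SGs, the condensates of untranslated mRNA and protein that form when translation initiation stops. Both carry an NTF2-like domain, through which they form dimers and bind partners such as CAPRIN1 and USP10, followed by disordered stretches, an RNA recognition motif and an arginine-glycine-rich tail. CAPRIN1 favours granule assembly and USP10 opposes it, by competing for the same surface.

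On GRCh38, G3BP1 lies on chromosome 5 from 151771045 to 151812911 on the plus strand. Its MANE transcript, the reference isoform shared by the Ensembl and RefSeq annotations, is G3BP1-201, with 12 exons, 10227 nt, a coding sequence of 466 codons and a 3′ UTR of 8694 nt. G3BP2 lies on chromosome 4 from 75641849 to 75724589 on the minus strand. Its MANE transcript, G3BP2-202, has 12 exons, 4321 nt, 482 codons and a 3′ UTR of 2644 nt. G3BP1 overlaps ATOX1 over 1488 nt and a lncRNA gene over 464 nt, both on the other strand. G3BP2 overlaps USO1 over 13 nt on the other strand. It also overlaps a Y RNA gene over 94 nt on its own strand, where strand could not separate reads. The use of strand in counting is not given in the sources used here, so reads of these stretches cannot be told apart, and neither can reads shared with the processed pseudogene G3BP1P1.

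Of 51 protein-coding transcripts of G3BP2, 18 have a coding sequence of 1446 nt and 12 one of 1347 nt. The former hold, and the latter lack, exon 8 of G3BP2-202, a cassette exon of 99 nt on chromosome 4 (75653983 to 75654081). Other annotated coding sequences, from 95 to 1272 nt, differ at other exons as well. Among these, transcripts with 1143, 1164 or 1272 nt hold the cassette exon and the rest lack it. The cassette exon holds codons 243 to 275, 33 codons in frame, within the stretch between the NTF2-like domain and the RNA recognition motif. G3BP2-201 skips it. The junctions are shown because a read across them tells whether the cassette exon was used, and capitals mark the bases of the cassette exon. Each window holds 15 bases on either side of a junction, written 5′ to 3′ on the minus strand from the GENCODE transcripts.
Upstream exon (75655066 to 75655080) to cassette exon (75654067 to 75654081): caagaaccaccaaagGCTTTCTCCTGGGCT
Cassette exon (75653983 to 75653997) to downstream exon (75648727 to 75648741): GCACCAGTCTCACAGccaagagtcgaagct
Upstream exon to downstream exon, cassette skipped: caagaaccaccaaagccaagagtcgaagct

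The cell line matched its label. Of 9 noradrenergic neuroblast markers, 8 were above 1 TPM in the siCtrl library, and only TH was low, at 0 to 0.389 TPM in the 5 libraries with TPM values. Of 6 markers of other cell types, COL1A1 was present at 9.42 to 40.97 TPM and the other 5 were at 0.870 TPM or lower. TPM is the abundance per transcript length scaled to a fixed total. The values of the listed protein-coding genes summed to between 623955 and 735927 per library, and TPM keeps no record of depth.

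Each siRNA lowered its own target. In the order siCtrl, siG3BP1, siG3BP2, Total and SG, G3BP1 was at 18.7, 5.996, 16.5, 12.8 and 59.3 TPM. It was lowest in the library with its own siRNA and highest in SG. In siG3BP1 the level was 32.0% of that in siCtrl, a log2 ratio of TPM + 1 of -1.50. Of 12280 genes above 1 TPM in either library, 85 fell further. A fall past 2-fold, with over 1 TPM in the higher library, was seen in 1.98% of 12280 genes, and a rise in 1.12%.

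G3BP2 was at 38.1, 39.4, 11.4, 28.1 and 143 TPM in the same order. It too was lowest with its own siRNA and highest in SG. In siG3BP2 it was at 29.9% of the siCtrl level, a log2 ratio of -1.66. Of 12229 genes above 1 TPM in either library, 93 fell further. Of these genes 2.89% fell past 2-fold and 1.23% rose.

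Neither paralog's mRNA passed the 2-fold rule when the other was depleted. G3BP2 was at 1.03 times its siCtrl level in siG3BP1 (log2 0.05, against a median of -0.08 over all genes), and 69.8% of genes had a lower ratio. G3BP1 was at 0.883 times its siCtrl level in siG3BP2 (log2 -0.17, against a median of -0.12), with 42.3% of genes lower. The G3BP1 value lay close to the middle of all genes, and the G3BP2 value somewhat above it. The balance between the paralogs moved with the siRNAs. G3BP2 exceeded G3BP1 by 2.03 times in siCtrl and 6.57 times in siG3BP1, and was at 0.690 of G3BP1 in siG3BP2, on the TPM scale. In Total and SG the ratio was 2.18 and 2.41. Total and siCtrl differ in treatment, siRNA and lysis, and may differ in RNA selection. Between them the levels were 0.686 times for G3BP1 and 0.736 times for G3BP2, beside a median of 0.750 over genes above 1 TPM in both. Neither passed 2-fold, where 1.28% of 12173 genes were higher and 19.6% lower.

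**Figure D1:**
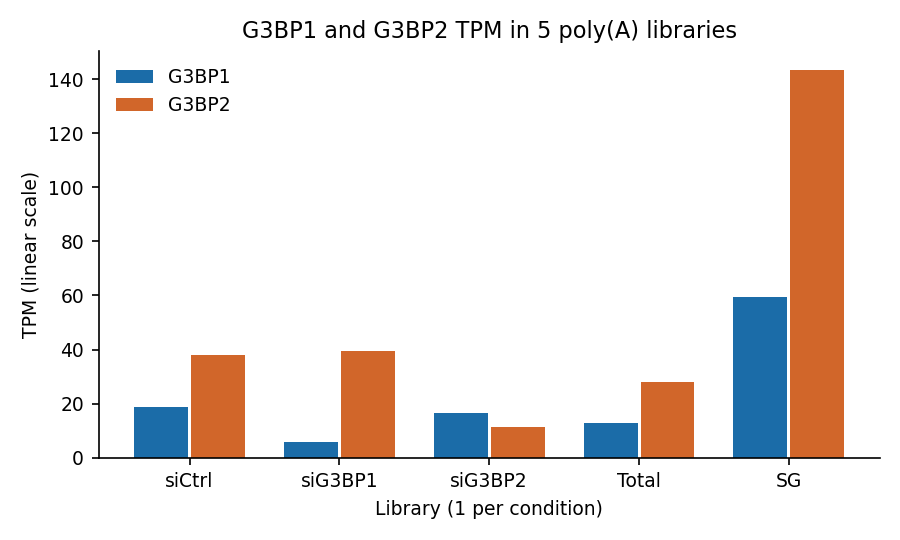
Bars give the TPM of G3BP1 and G3BP2 on a linear axis in 5 libraries, 1 per condition and without error bars. The title of the figure calls all 5 libraries poly(A), but poly-A selection is stated for the siRNA libraries and not for Total and SG. Each gene is lowest in the library with its own siRNA, at 5.996 TPM for G3BP1 and 11.4 TPM for G3BP2, and both are highest in SG.

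The mRNAs of both scaffold proteins were present in SG cores at more than their share in lysate. G3BP1 rose from 12.8 TPM in Total to 59.3 TPM in SG, 4.62 times, and G3BP2 from 28.1 to 143 TPM, 5.11 times. On the TPM + 1 scale the log2 ratios were 2.12 and 2.31. Both passed the 2-fold rule. So did 62.9% of the 13560 genes above 1 TPM, while 9.45% were depleted, and the median log2 ratio of all genes was 1.51. Relative to that median the members lay 0.61 and 0.80 higher, and 63.1% and 66.9% of genes had a lower ratio than G3BP1 and G3BP2. With the median ratio of genes set to 1, the log2 ratios were 0.69 and 0.86 and neither gene passed 2-fold. Over the same libraries COL1A1 went from 9.42 to 40.97 TPM and the summed markers of other cell types from 9.65 to 42.5 TPM, and their part in the result was not tested.

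For 20 genes of SG scaffold proteins and G3BP partners, 15 passed 2-fold upwards in SG and 1 passed downwards, beside the 62.9% and 9.45% of all genes. The median log2 ratio was 1.90. CAPRIN1 was at 101 TPM in Total and 174 in SG, 1.72 times, which did not pass. USP10 was at 32.6 and 128 TPM, 3.92 times, and UBAP2L, an RNA-binding protein needed for granule assembly, at 59.1 and 307 TPM, 5.19 times. The extremes were PRRC2C, from 8.51 to 451 TPM, and YBX1, the cold shock domain protein, from 1485 to 137 TPM. With the median ratio set to 1, 7 of the 20 passed upwards and 2 downwards. Over all genes that scaling gave 4505 upwards and 3271 downwards, against 8528 and 1282 as deposited. None of the 20 passed 2-fold in either direction in siG3BP1 or in siG3BP2, where their log2 ratios spanned -0.49 to 0.46 and -0.57 to 0.44. Few genes of any kind did, 1.12% upwards and 1.98% downwards in siG3BP1 and 1.23% and 2.89% in siG3BP2. CAPRIN1 was at 107.8, 95.2 and 97.48 TPM in siCtrl, siG3BP1 and siG3BP2, USP10 at 46.0, 47.6 and 38.4 TPM, and UBAP2L at 115, 115 and 102 TPM.

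**Figure D2:**
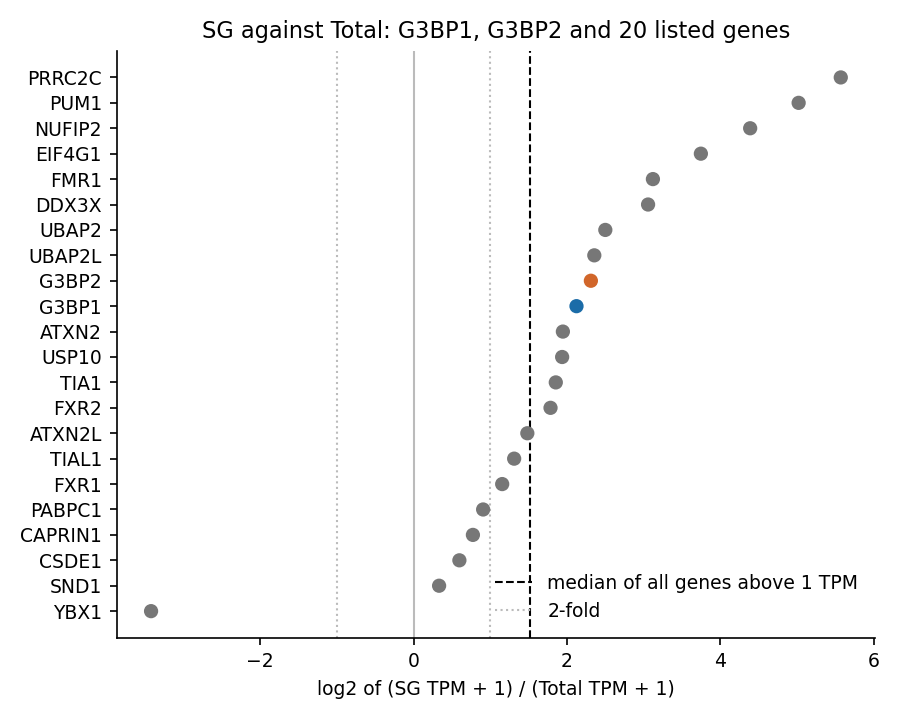
Points give the log2 ratio of TPM + 1 in SG against Total for G3BP1, G3BP2 and 20 listed genes, 1 library each. G3BP1 at 2.12 and G3BP2 at 2.31 sit to the right of the dashed median of all genes at 1.51 and among the listed genes, which run from -3.42 for YBX1 to 5.57 for PRRC2C.

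Over the 5 libraries with TPM values, the genes whose log2(TPM + 1) followed G3BP1 most closely, among 5201 genes above 10 TPM in all of them, were ATPAF2 (Pearson r 0.996), APBB1 (0.992) and MPI (0.991). For G3BP2 they were CARHSP1 (0.994), POC1A (0.992) and TEAD4 (0.988). The members followed each other less closely, with r 0.603. These values describe 5 libraries that each differ in condition, and a gene can match in shape while changing little. ATPAF2 ranged from 19.1 to 24.1 TPM and POC1A from 20.6 to 26.3 TPM.

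In the rRNA-depleted libraries most transcripts of both genes had a higher value after AS, by about as much as transcripts in general for G3BP1 and somewhat more for G3BP2. The values are RPKM, reads scaled by transcript length and library size, and multiplying by length gave whole numbers of reads. The steps corresponded to 13291958 reads for the untreated library and 11281587 for the AS library. A read appeared to be counted in every isoform that contains it whole. Across the pairs of member transcripts in which the exons of the smaller lie inside the larger, the smaller had no more reads than the larger in 1664 of 1664 pair and library combinations. Of 189 transcripts shorter than 150 nt in genes with a transcript above 500 reads, 0 had a value. Isoform values are thus not separate measurements, and short isoforms are understated.

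Of the 78 transcripts of G3BP1, 67 had a value above 0 in at least 1 library and 62 exceeded 1 RPKM. These 62 ranged from 0.9745 to 29.3 RPKM in untreated cells, with a median of 9.88, and from 0.306 to 36.7 RPKM in AS-treated cells, with a median of 11.4. The MANE transcript G3BP1-201 went from 10.1 to 11.7 RPKM (1367 and 1346 reads), a ratio of 1.16 with a 95% exact interval of 1.08 to 1.25. Such intervals cover counting error only. The isoform with the highest untreated value, G3BP1-221, which is annotated as a target of nonsense-mediated decay (NMD), was at 29.3 and 36.1 RPKM, and the protein-coding G3BP1-228, highest in AS, at 29.1 and 36.7 RPKM. Of the 62 transcripts, 54 were higher and 8 lower in AS, with log2 ratios of RPKM + 1 between -0.97 and 0.74 and a median of 0.21. Past 2-fold, 0 rose and 0 fell, where 1.51% of 100705 transcripts above 1 RPKM rose and 0.47% fell. The median log2 ratio of those 100705 transcripts was 0.22, and 78.9% of them were higher in AS.

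Of the 90 transcripts of G3BP2, 65 had a value above 0 and 62 exceeded 1 RPKM. They ranged from 0.588 to 33.2 RPKM in untreated cells, with a median of 21.1, and from 0.617 to 44.4 RPKM in AS-treated cells, with a median of 26.6. G3BP2-202 went from 26.5 to 33.8 RPKM (1523 and 1646 reads), a ratio of 1.27 with an interval of 1.19 to 1.37. G3BP2-201 had the highest value in both libraries, 33.2 and 44.4 RPKM. Of the 62 transcripts, 61 were higher and 1 lower in AS, with a median log2 ratio of 0.33 and a range of -0.34 to 1.11. Over all transcripts above 1 RPKM, 78.9% were higher. Past 2-fold, 2 rose, both at low counts, chosen here after their values were seen. G3BP2-246 had 2 and 7 reads and G3BP2-278 had 9 and 20. Above the median of all transcripts lay 61 of the 62 G3BP2 transcripts and 27 of the 62 G3BP1 transcripts, a count over isoforms that share reads.

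Summed over all isoforms, which counts shared reads many times, G3BP1 went from 754 to 912 RPKM (log2 0.27) and G3BP2 from 1194 to 1557 RPKM (log2 0.38). With the median ratio of transcripts set to 1, these became 0.02 and 0.13. No isoform held more than 3.89% of its gene's sum in untreated cells, and no share moved by more than 0.488 percentage points with AS. Among the 20 listed genes the MANE transcripts showed 0 rises and 0 falls past 2-fold, with a median log2 ratio of 0.18 and a highest value of 0.90, that of NUFIP2. Over all transcripts above 1 RPKM, 1.51% rose and 0.47% fell that far, and the median was 0.22. CAPRIN1 went from 43.96 to 54.5 RPKM, USP10 from 15.3 to 19.1 and UBAP2L from 52.8 to 60.02.

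**Figure D3:**
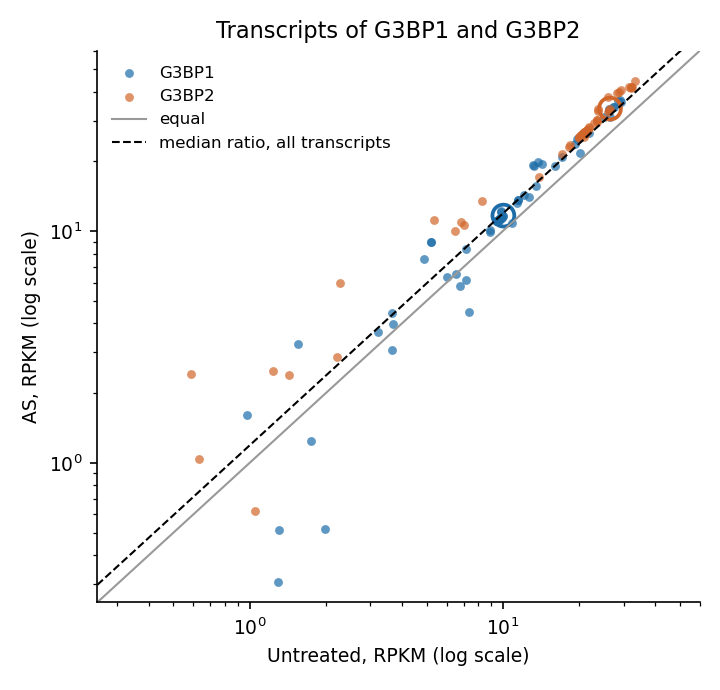
Each point is a transcript of G3BP1 or G3BP2 above 1 RPKM in either rRNA-depleted library, 62 of each gene, with untreated RPKM on the x axis and AS RPKM on the y axis, both on log scales. Rings mark the MANE transcripts, the grey line equality and the dashed line the median AS to untreated ratio of all transcripts, 1.19. Among transcripts with at least 50 reads in both libraries, those of G3BP2 lie above the dashed line, at ratios of 1.22 to 1.63. Those of G3BP1 lie on both sides, at 1.00 to 1.46.

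The isoforms were also grouped by annotated kind. In G3BP1, the median log2 ratio was 0.21 over 27 protein-coding, 0.23 over 21 NMD and 0.15 over 11 retained-intron transcripts above 1 RPKM, and 0.22 over 3 with no defined coding sequence. In G3BP2 it was 0.33 over 42 protein-coding, 0.46 over 9 NMD and 0.32 over 8 retained-intron transcripts. The 3 G3BP2 transcripts with no defined coding sequence had a higher median, 0.94, with a range of 0.65 to 1.09. Among them, G3BP2-205 had 39 reads in untreated and 69 in AS-treated cells, a ratio of 2.08 with an interval of 1.39 to 3.17. The G3BP1 transcripts with the largest falls, named after their values were seen, had few reads. G3BP1-246, an NMD transcript, had 9 reads in untreated and 2 in AS-treated cells. The retained-intron transcript G3BP1-205 had 15 and 3, a ratio of 0.236 with an interval of 0.0437 to 0.833, and G3BP1-232, also with a retained intron, had 37 and 19. The G3BP1 transcript with the largest rise, G3BP1-266, had 9 and 16 reads. The only lower G3BP2 transcript, G3BP2-236, had 34 and 17, a ratio of 0.589 with an interval of 0.309 to 1.08.

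The table allows a look at the cassette exon of G3BP2 through isoforms that are alike but for that exon. Their outer ends differed by at most 120 nt. The transcript with the exon had 11 to 19 more reads than its partner in untreated cells and 6 to 14 more in AS-treated cells, over 9 pairs that share most of their reads. This surplus is the reads that touch the exon or its junctions minus those that cross the skipping junction shown above. Reads at the differing outer ends also enter it. A small value can thus come from few reads of either kind or from similar numbers of both. For the other exons of the members with such a pair, the surplus ran from 0 to 160 reads in untreated and from 0 to 146 reads in AS-treated cells. It was far above that of the cassette exon at an exon of 91 nt in G3BP1 (chromosome 5, 151794159 to 151794249), with 70 and 61 reads, and at exons of 119 nt (75646338 to 75646456) and 143 nt (75661931 to 75662073) in G3BP2, with 160 and 146 and with 109 and 135 reads. At an exon of 152 nt in G3BP2 (75662690 to 75662841) it was close to it, with 18 and 8 reads, and at the rest it was at most 8. A change in cassette use with AS was not tested, and the surplus cannot decide it, since it does not separate inclusion from skipping.

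The distal 3′ UTR was read at lower density than the short isoform in both genes, and the more so in G3BP1. A short isoform was set against a long one with the same stop codon, 3′ ends at least 1000 nt apart and at most 200 nt of difference before the stop, with the pair of most reads taken for each gene. Distal reads are those of the long form minus those of the short form. They therefore include net reads of the differences before the stop, 65 nt for G3BP1 and 109 nt for G3BP2. The latter include the cassette exon. In untreated cells the short form G3BP1-260 was at 27.5 RPKM and the distal 8572 nt of G3BP1-271 beyond it at 6.47 RPKM, a ratio of 0.236. The short form G3BP2-201 was at 33.2 RPKM and the distal 1603 nt of G3BP2-202 at 17.4 RPKM, a ratio of 0.524. The median ratio over 1093 genes with such a pair was 0.563, and 16.7% of genes lay below G3BP1 and 45.8% below G3BP2. Between the paralogs, the levels per length were 27.5 and 33.2 RPKM on the short forms, and 10.1 and 26.5 RPKM on the MANE transcripts.

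With AS, the short part of both genes gained more than the distal part. G3BP1-260 had 634 reads in untreated and 675 in AS-treated cells and the distal part 737 and 676. G3BP2-201 had 1152 and 1308 reads and the distal part 371 and 338. Scaled by library, the log2 change of the distal part minus that of the short form was -0.22 for G3BP1, with a 95% counting interval of -0.43 to 0.00, and -0.32 for G3BP2, with an interval of -0.56 to -0.08. The interval of G3BP1 reaches 0. Over the 1093 genes the median was -0.01 and the central 90% ran from -0.49 to 0.46, so both members lay inside the range of genes in general, with 21.3% and 12.5% of genes below them. This contrast was chosen after the members' values were seen. Within the last 50 bases, AATAAA was found in G3BP1-271 and G3BP2-202 and not in either short form. It was found in 18.5% of the short and 60.8% of the long transcripts of the 1093 genes, searched on the transcript strand.

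**Figure D4:**
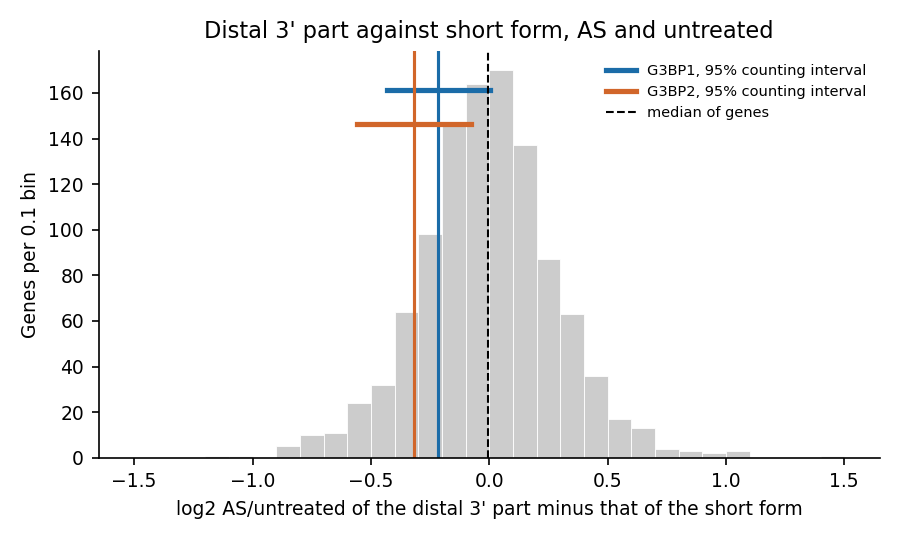
The histogram counts 1093 genes by the log2 AS to untreated change of the distal 3′ part minus that of the short form, in bins of 0.1. Vertical lines mark G3BP1 at -0.22 and G3BP2 at -0.32 with their 95% counting intervals as horizontal bars, and both lie to the left of the median of genes at -0.01 but within the bulk of the distribution.

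In eCLIP, both genes had a value above 0 in all 8 libraries, and neither passed the test over all genes in any comparison. In the fits on deposited values at most 0.0105% of genes passed in either direction. The deposited value is the log10 of a whole number plus 1 per gene, to 2 decimals. Its columns are headed peaks, but the library totals given below far exceed the peak counts that the paper reports. What the number counts is not otherwise given in the sources used here. For G3BP1 in the order untreated G3BP1 eCLIP, untreated G3BP2 eCLIP, AS G3BP1 eCLIP and AS G3BP2 eCLIP, replicate 1 was at 3.55, 3.50, 3.44 and 3.52, and replicate 2 at 2.89, 2.77, 2.77 and 3.33. For G3BP2 the same order gave 3.92, 3.85, 3.81 and 3.87 in replicate 1, and 3.21, 3.28, 3.14 and 3.49 in replicate 2. Replicate 2 was lower in every group. The numbers summed over genes to about 22679000 to 26180000 in the libraries of replicate 1 and 4269000 to 10678000 in those of replicate 2. In each library the G3BP2 gene was above the G3BP1 gene, by 0.16 to 0.51 on the log10 scale.

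Expressed per 1000000 of each library's total, the number for the G3BP1 gene was at 148 and 114 in untreated G3BP1 eCLIP and 121 and 138 in AS G3BP1 eCLIP. It was at 121 and 55.1 in untreated G3BP2 eCLIP and 127 and 279 in AS G3BP2 eCLIP. The G3BP2 gene was at 347 and 239, then 285 and 323, in G3BP1 eCLIP, and at 270 and 178, then 284 and 403, in G3BP2 eCLIP. In G3BP1 eCLIP untreated and AS values overlapped, while in G3BP2 eCLIP the AS values lay above both untreated values for both genes, as they did for 14.7% of 19035 genes. The second libraries of G3BP2 eCLIP held the lowest untreated and the highest AS value for both genes. On that scale 1.29% of 16476 genes deviated further down than the G3BP1 gene from their median over 8 libraries in untreated replicate 2, and 99.3% lay below it in AS replicate 2. The G3BP2 gene was less extreme, with 4.45% and 91.4% of genes below it. In untreated G3BP1 eCLIP replicate 1, 91.6% of genes lay below the G3BP2 gene. Over all genes these libraries were not the most variable. The SD of the log2 deviations was 0.380 and 0.415 in them, and between 0.316 and 0.551 in the 8 libraries.

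By limma over all genes with Benjamini-Hochberg adjustment, the AS change of the G3BP1 gene on the deposited scale was -0.12 in G3BP1 eCLIP (95% interval -1.28 to 1.05, adjusted p = 1) and 0.29 in G3BP2 eCLIP (-0.56 to 1.14, adjusted p = 1). For the G3BP2 gene it was -0.09 (-1.29 to 1.11, adjusted p = 1) and 0.12 (-0.76 to 0.99, adjusted p = 1). Of 18888 genes 0 passed in either direction in G3BP1 eCLIP (0% called, 46 at an unadjusted p under 0.05). Of 19035 genes 2 were higher (0.0105%) and 0 lower in G3BP2 eCLIP. Without the second AS library, the changes in G3BP2 eCLIP were 0.39 and 0.31 on the deposited scale. With libraries scaled to the same total they were 0.36 (-0.05 to 0.77) and 0.19 (-0.02 to 0.39), and 0.19 and 0.11 when the second AS library was also left out. That scaling gave -0.0021 (-0.15 to 0.15) and 0.023 (-0.14 to 0.18) in G3BP1 eCLIP. The smallest adjusted p over all alternatives of these 4 changes was 0.786.

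No difference between the precipitates passed the test for either gene, including each protein's own mRNA. The deposited values are not scaled between libraries, and 0% of genes passed in these fits. The result therefore does not show that the precipitates are alike. In untreated cells the G3BP1 gene differed by -0.09 between G3BP2 and G3BP1 eCLIP (-0.93 to 0.76, limma adjusted p = 1) and the G3BP2 gene by 0.00 (-0.88 to 0.88, adjusted p = 1). The median difference over all genes was 0.12, and 5.34% and 11.9% of genes lay lower than the members. In AS-treated cells the differences were 0.32 (-0.84 to 1.48) and 0.21 (-0.98 to 1.39), each with an adjusted p of 1. Over all genes the median was 0.155 there, with 88.8% and 68.9% of genes lower than the members. The interaction of AS and precipitated protein was 0.41 (-0.83 to 1.64) and 0.21 (-1.07 to 1.48), also with adjusted p = 1. In these fits 0% of 19004, 18934 and 19259 genes passed in either direction, and 101, 22 and 48 had an unadjusted p under 0.05. With libraries scaled to the same total, the differences in untreated cells were -0.20 (-0.52 to 0.11) and -0.12 (-0.33 to 0.10), and -0.032 and -0.027 when the second untreated G3BP2 library was also left out. In AS-treated cells they were 0.16 (-0.13 to 0.45) and 0.048 (-0.10 to 0.20). These intervals were narrower than on the deposited scale. Among the 20 listed genes 0 passed in any of the 5 fits, and the median AS change was -0.15 in G3BP1 eCLIP and -0.06 in G3BP2 eCLIP, beside -0.12 and -0.08 over all genes.

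**Figure D5:**
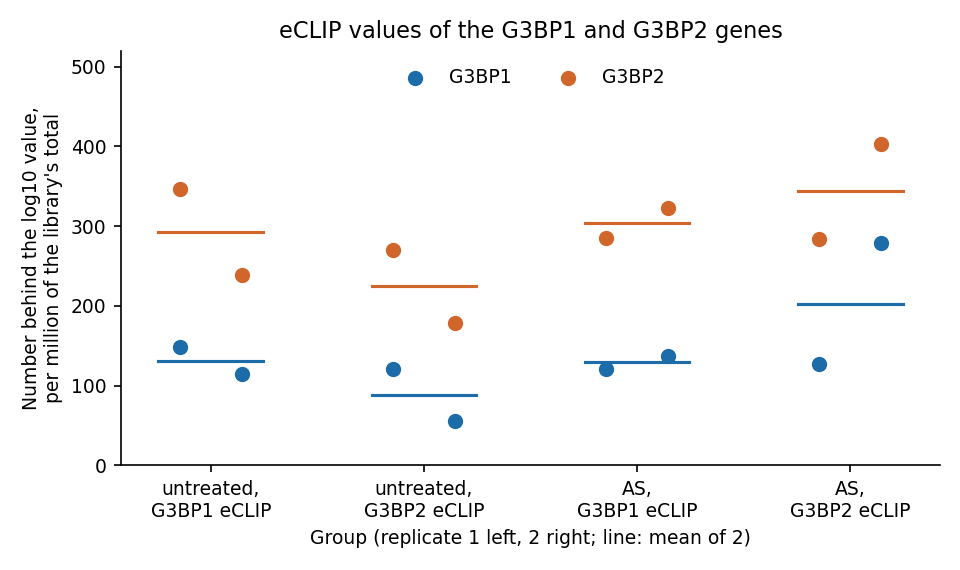
Points give the number behind the eCLIP value of the G3BP1 and G3BP2 genes per 1000000 of the library's total, on a linear axis, for 2 libraries in each of 4 groups, with a line at each group's mean. Untreated and AS libraries overlap in G3BP1 eCLIP, while in G3BP2 eCLIP the second AS library is highest, at 279 for G3BP1 and 403 for G3BP2, and the second untreated library lowest.

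How the genes ranked in eCLIP depended on the length used. The G3BP1 gene spans 41867 nt and the G3BP2 gene 82741 nt, while the genomic spans of all their annotated transcripts sum to 1502939 and 2919873 nt. In untreated G3BP1 eCLIP replicate 1, the number per kb of gene span was 84.7 for G3BP1 and 100.5 for G3BP2 against a median of 10.4 over genes, and 99.3% and 99.5% of genes lay lower. Per kb of summed transcript span it was 2.36 and 2.85 against a median of 3.41, with 21.6% and 30.2% of genes lower. Over the 8 libraries the percentile per kb of gene span ran from 90.2 to 99.8 for G3BP1 and from 97.0 to 99.6 for G3BP2. Per kb of summed span it ran from 5.83 to 76.5 and from 10.8 to 48.1, with the highest values in the second AS library of G3BP2 eCLIP. Across genes, which are not independent replicates, Pearson's r of the log10 value was 0.822 to 0.864 with the log10 of gene span and 0.909 to 0.921 with that of summed span, over 17330 to 18979 genes per library.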

How the data were processed

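All samples were SH-SY5Y cells. The authors aligned RNA-seq reads to GRCh38.p13 (hg38 per the labels) with HISAT2 2.1.0 and estimated abundance with StringTie. The deposited TPM are per protein-coding gene. The rRNA-depleted table is headed TPM, but the deposited values behave as RPKM: value times transcript length was a whole number of reads, within 0.02 reads, in 100% of 116354 low values in untreated cells and 99.9992% of 118225 in AS-treated cells, and its columns sum to over 1000000. Of its transcripts, 88.5% matched GENCODE release 44 by ID and version, all 168 member transcripts among them. For eCLIP the authors used fastp, STAR, CLIPper and SMInput normalization, and deposited log10 values that are not scaled between libraries. Whether the numbers are before or after SMInput normalization is not given in the sources used here. For the AS libraries other than the rRNA-depleted one, the labels' protocol field gives 50 mM for 1 h and the methods give the same dose as for the rRNA-depleted one, and the field also stands on untreated samples.

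The design had foreseen sums of isoform values. Since isoforms share reads, those sums are given beside single isoforms. Log2 ratios used a pseudocount of 1 and a minimum of 1 in the higher library. The eCLIP values were fitted on the log10 scale with limma 3.58.1 (R 4.3.3, intensity trend, Benjamini-Hochberg at 0.05, genes above 0 in at least 2 libraries). The fit was run on simulated data with less spread between libraries than the members had, whose SD within groups was 0.134 to 0.516. That run therefore does not show what could be called on the deposited scale. Ratios of reads of single transcripts carry 95% exact intervals. The 95% counting intervals of the distal part against the short form use a normal approximation on the log scale. They treat the distal reads, a difference of overlapping counts, as an independent count. Tables were handled with pandas 2.3.3 and numpy 2.4.6 in Python 3.11.15, intervals came from scipy 1.17.1, and figures from matplotlib 3.10.9. The members and the list of 20 genes were chosen with earlier results of these data known. The rule for named genes took the members, CAPRIN1, USP10, UBAP2L and the 3 nearest genes per member, and every isoform above 1 RPKM. Of those isoforms, the reference ones and those a stated value belongs to are named and the rest counted. PRRC2C, YBX1 and NUFIP2 fall outside the rule and were named after their values were seen. Alternatives covered pseudocounts, scaling, filters, folds, the replicate block and leaving out libraries. Scaling to the same total without the second G3BP2 eCLIP library of a treatment was chosen after seeing the data, as was the count of genes without overlap in G3BP2 eCLIP. Protein sequences were not used here.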

Additional observations from a re-analysis of the deposited data

How the results depend on the processing

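With the median ratio of genes set to 1, the log2 ratio in SG fell to 0.69 for G3BP1 and 0.86 for G3BP2, and with TPM rescaled to 1000000 it was 1.92 and 2.09. The same median scaling gave -1.54 for G3BP2 in siG3BP2 and -0.056 for G3BP1 in siG3BP2, and a pseudocount of 0.1 gave -1.63 for G3BP1 in siG3BP1. With the median ratio set to 1, genes in SG past 2-fold were 4505 higher and 3271 lower, against 8528 and 1282 as deposited, and in siG3BP2 193 and 290 against 150 and 353. At a fold of 1.5, 455 genes were higher and 765 lower in siG3BP1, against 138 and 243, and 418 and 1186 in siG3BP2. For the summed isoforms in AS, the same sum in both libraries gave 0.047 for G3BP1 and 0.16 for G3BP2, and the median ratio set to 1 gave 0.02 and 0.13. In eCLIP no alternative brought a member past the threshold. The AS change of the G3BP2 gene in G3BP1 eCLIP turned to 0.023 with libraries scaled to the same total, and in AS-treated cells the differences between precipitates turned to -0.0078 for G3BP1 and -0.028 for G3BP2 when, with that scaling, AS G3BP2 replicate 2 was left out. The cause was not tested.

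The labels do not say that a replicate number marks a shared batch. Replicate 1 minus replicate 2 correlated between groups by 0.501 to 0.555 within a treatment and 0.124 to 0.194 across treatments, over 16476 genes. With the replicate block the differences kept their values, such as -0.12 for G3BP1 in G3BP1 eCLIP (adjusted p = 0.786 by limma), and the block with same-total scaling gave 0.36 for G3BP1 in G3BP2 eCLIP (adjusted p = 0.943) and 0.023 for G3BP2 in G3BP1 eCLIP. In untreated cells it gave -0.20 for G3BP1 (95% interval -0.33 to -0.08, unadjusted p = 0.00574, adjusted p = 0.907 by limma) and -0.12 for G3BP2 (-0.19 to -0.05, unadjusted p = 0.00414, adjusted p = 0.907) between the precipitates, with both same-numbered pairs lower in G3BP2 eCLIP. In that fit 939 of 19004 genes had an unadjusted p under 0.05 and 0 passed after adjustment. The block changed no call of a member.

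Leaving out 1 eCLIP library at a time, which leaves 1 library in a group that is assumed to vary like the other, the AS change ran from -0.45 to 0.22 (G3BP1) and -0.45 to 0.27 (G3BP2) in G3BP1 eCLIP and from -0.075 to 0.66 and -0.17 to 0.40 in G3BP2 eCLIP. The difference between precipitates ran from -0.45 to 0.28 and -0.36 to 0.36 in untreated cells and from -0.015 to 0.66 and -0.13 to 0.54 in AS-treated cells, and the interaction from 0.04 to 0.77 and -0.15 to 0.56. The cause of these turns of sign was not tested.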

Other observations

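For 4 pairs of G3BP2 isoforms that differ by an internal exon of 121 nt at chromosome 4, 75724056 to 75724176, the isoform with the exon had 4 to 6 more reads in untreated and 6 to 8 more in AS-treated cells.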
